A study of Mus musculus with 4 samples.

Results

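Ccl5+ Nkg7+ CD8 T cells were described in lungs of mice that carried HKP1 tumours and had received radiation or a mock treatment. A cell was taken when it held at least 1 unique molecular identifier (UMI, a counted RNA molecule) of Cd3d, Cd3e or Cd3g, at least 1 of Cd8a or Cd8b1, and both Ccl5 and Nkg7, with none of Cd4, Cd79a, Ncr1 and Foxp3. There were 624 such cells, 412 at 4 Gy and 212 at 0 Gy, among 15023 CD45-positive cells and 25315 cells in the whole series. They are called members below. Because UMIs of these genes chose the cells, the levels of the rule genes are descriptions only.

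HKP1 cells are a line of mouse lung adenocarcinoma, and they settle in the lung when injected into a tail vein. Female C57BL/6 mice aged 8 weeks received 150000 HKP1 cells in both groups and were grouped on day 6. One group was given 4 Gy on each of 3 days, days 10 to 12, and the other a mock treatment of 0 Gy. Each treatment had 4 mice, whose lungs were collected 24 to 48 h later, and sorted CD45-positive and CD45-negative cells were profiled with droplet single-cell RNA sequencing. There was 1 library for each dose and sort, so no test between doses was possible and no p-value is given. Brackets give exact 95% intervals that cover counting error only and not the spread between mice. For summed UMIs they also leave out the spread between the cells of a library.

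CD8 T cells recognise peptides on MHC class I and can kill the cells that present them. Naive CD8 cells circulate through lymph nodes with the help of the chemokine receptor Ccr7, and after activation they turn on chemokines such as Ccl5 and granule proteins such as Nkg7. Effector cells in tissue often carry Cxcr6, the receptor of Cxcl16, while memory cells that keep circulating hold on to Ccr7 and the transcription factors Tcf7 and Lef1. Radiation activates p53, and a well known target of p53 is Cdkn1a, an inhibitor of the cell cycle.

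The CD45-positive libraries held 9608 barcodes at 4 Gy and 5415 at 0 Gy, with medians of 2606 and 3096 UMIs, and shared 10 barcodes. Members had a median of 4544.5 UMIs at 4 Gy (761 to 33008) and 5646.5 at 0 Gy (690 to 22103). Members were shallower at 4 Gy, so shares of members with a UMI are also given after each cell was thinned to 1000 UMIs.

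Some member barcodes also held RNA of another cell type, and the values with and without them differ. At least 10 UMIs of genes of monocytes or macrophages, of neutrophils or of B cells were found in 42 of 412 members at 4 Gy and 20 of 212 at 0 Gy. These mixed barcodes were 10.2% of members and held 23.4% of their UMIs at 4 Gy, against 9.43% and 16.8% at 0 Gy. Their median depth was 11591 UMIs at 4 Gy and 11465.5 at 0 Gy, against 4190.5 and 5416.5 in the other members. The summed level of the 6 neutrophil genes was 2986 CPM (UMIs of a gene scaled to a fixed total per library) at 4 Gy and 1511 CPM at 0 Gy over all members, and 52.5 and 35.8 CPM without the mixed barcodes. No doublet caller was run, and this limit was chosen after the data were seen. Levels below are given without the mixed barcodes, from 370 members at 4 Gy and 192 at 0 Gy, unless all members are named. The comparison sets (naive-like CD8, NK, activated CD4 and B cells) were treated in the same way, except that B cells kept their own genes. B cells were included as the level of free RNA, which is RNA of other cells that a droplet can take up.

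The genes with the highest dose ratios over all members had few UMIs left without the mixed barcodes. The 12 highest were Ccl24, Arg1, Ngp, Gpnmb, Gatm, Camp, Anpep, F10, Thbs1, Lcn2, Cstdc4 and Bcl2a1a. Arg1, the arginase of macrophages, had 312 UMIs at 4 Gy and 1 at 0 Gy over all members, and 11 and 1 without the mixed barcodes. Lcn2, a neutrophil granule protein, had 117 and 14 UMIs over all members, and 1 and 0 without them. Ccl24, a chemokine, had 221 and 0 UMIs, at least 43.2-fold higher at 4 Gy against a floor of 3 counts in the 0 Gy library, and 1 and 0 without them. None of the 12 reached 30 counts over both libraries once the mixed barcodes were left out.

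**Figure D1:**
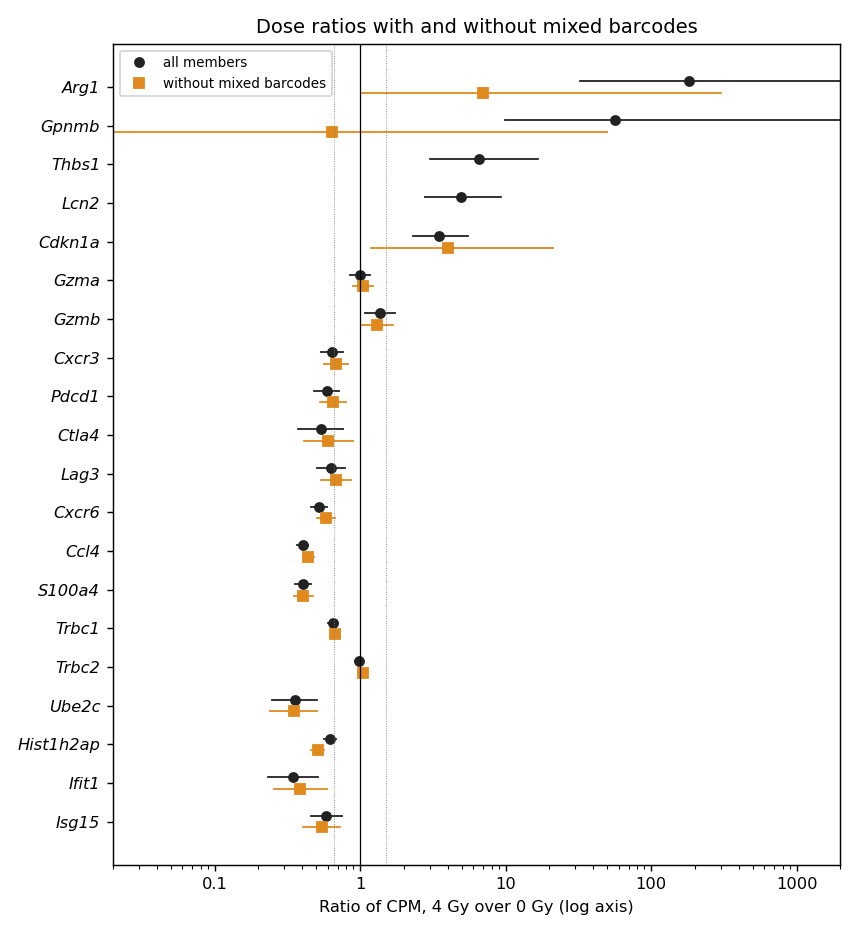
Ratio of CPM at 4 Gy over 0 Gy (log axis) for named genes in all members (circles) and without mixed barcodes (squares), with 95% counting intervals cut at the edges of the plot; dotted lines mark 1.5-fold, and Thbs1 and Lcn2 have no square because a ratio without mixed barcodes could not be drawn. Arg1, Gpnmb, Thbs1 and Lcn2 lie far to the right in all members, while Cxcr6, S100a4 and Pdcd1 lie left of 1 in both.

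The label effector memory was met in part. Il2rb, a receptor chain for interleukin-2 and interleukin-15, stood at 391 CPM at 4 Gy and 349 CPM at 0 Gy in members, against 60.5 and 90.8 CPM in naive-like CD8 cells, a set that needed a naive marker such as Ccr7 and held neither Ccl5 nor Nkg7. Cd44, a marker of T cells that have met antigen, stood at 73.7 and 73.4 CPM in members, against 6.72 and 8.65 CPM in naive-like cells. Cxcr3, a receptor for interferon-induced chemokines, stood at 136 and 199.6 CPM in members, against 0 and 17.3 CPM in naive-like cells. All of these were higher in members than in naive-like cells in both libraries.

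Members held genes of naive or central-memory cells as well as granule genes. The shares here are over all members, mixed barcodes included, with all UMIs and then after thinning. A Ccr7 UMI was found in 36.9% at 4 Gy and 33.0% at 0 Gy, and in 10.2% and 9.95% after thinning. Among other thinned cells it was found in 0% and 0.275% of NK cells and in 16.5% and 17.2% of B cells. In thinned naive-like CD8 cells, a set chosen in part by Ccr7, it was found in 35.3% and 21.3%. A Lef1 UMI was found in 48.3% and 49.1%, and in 14.4% and 14.7% after thinning. Among other thinned cells it was found in 4.09% and 4.12% of NK cells and in 0.602% and 0.515% of B cells. In thinned naive-like CD8 cells it was found in 34.5% and 36.1%. Gzmb, a protease of killer cells, was found in 16.7% at 4 Gy and 14.2% at 0 Gy, and in 7.54% and 6.64% after thinning, against 49.1% and 47.0% of thinned NK cells and 0.602% and 0.281% of thinned B cells. Thinned shares with a Ccr7 UMI were thus not far from those with a Gzmb UMI. Prf1, the pore-forming protein perforin, was found in 31.6% and 29.2%, and in 8.52% and 7.58% after thinning, against 65.7% and 58.5% of thinned NK cells. Klrg1, a receptor of terminal effector cells, was found in 3.64% and 2.36%, and in 1.22% and 0.474% after thinning, against 16.5% and 17.6% of thinned NK cells. Gzmb, Prf1 and Klrg1 were all found in a smaller share of members than of NK cells. Gzma stood at 234 CPM at 4 Gy and 223 CPM at 0 Gy in members, against 14847 and 14347 CPM in NK cells and 233 and 62.1 CPM in B cells, so that at 4 Gy its summed level in members was near that of cells that should lack it. The share of cells with a Gzma UMI was higher in members than in B cells in both libraries. It was 9.25% and 3.79% of thinned members, against 2.37% and 1.27% of thinned B cells. Without mixed barcodes, 1 member held 21.7% of the Gzma UMIs at 4 Gy and 1 held 39.8% at 0 Gy. The NK receptor Klrb1c stood at 15.4 and 12.5 CPM in members, against 966 and 851 CPM in NK cells. The cells are therefore named here by Ccl5 and Nkg7.

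**Figure D2:**
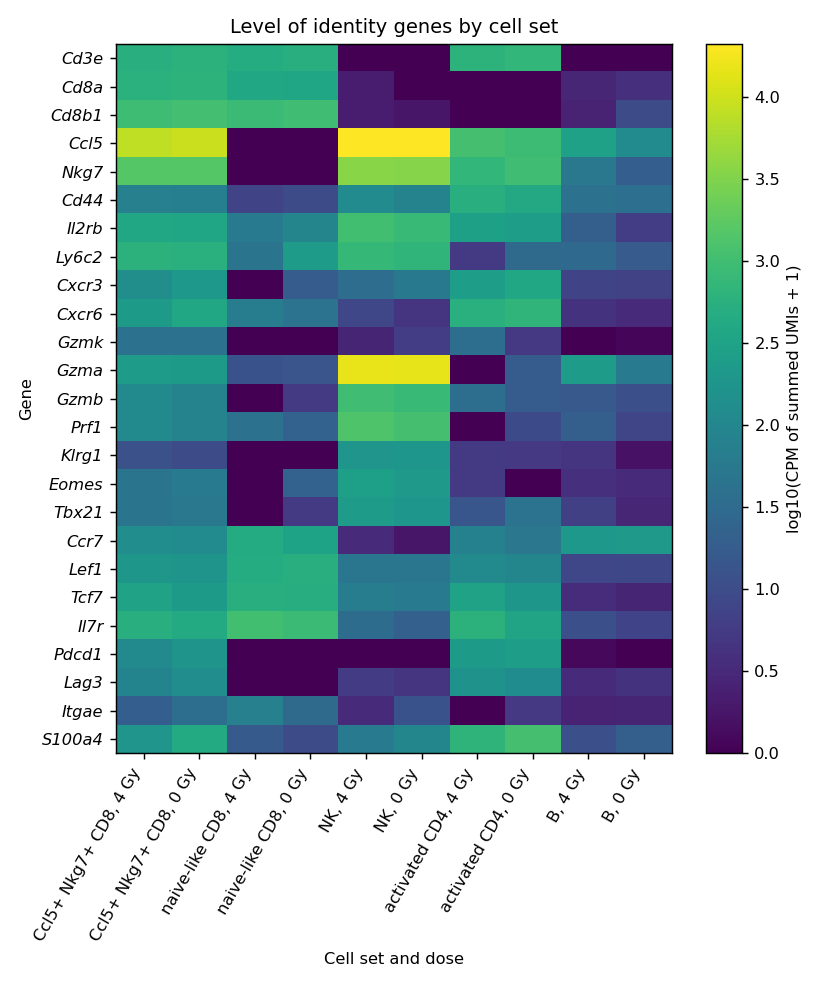
Level of identity genes as log10(CPM + 1) of summed UMIs (colour) in members without mixed barcodes and in naive-like CD8, NK, activated CD4 and B cells, each at 4 Gy and 0 Gy side by side. Members lie between naive-like CD8 and NK cells for Il2rb, Gzmb and Prf1, and hold Ccr7, Lef1, Tcf7 and Il7r together with Cxcr6 and S100a4.

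Genes outside the rule with the highest level in members over the highest of naive-like CD8, NK and activated CD4 cells, by the lower value of both libraries, included Abcb9, Glipr2, Jaml, Dnajc9, Crtam, Mif, Sorl1, Mcm3 and Rrp1b. Crtam, a surface receptor of activated CD8 and NK cells, stood at 48.0 CPM at 4 Gy and 51.9 CPM at 0 Gy in members, against 25.1 and 22.3 CPM in NK cells and 4.36 and 33.9 CPM in activated CD4 cells. Jaml, an adhesion molecule, stood at 83.4 and 72.5 CPM in members, against 34.9 and 46.6 CPM in activated CD4 cells. Gzmk, a granzyme of memory CD8 cells, stood at 41.1 and 41.2 CPM in members, against 34.9 and 4.24 CPM in activated CD4 cells and 1.79 and 5.16 CPM in NK cells.

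The promoters of Nkg7, a gene of the rule, and of Cxcr6, the receptor that splits the members below, are shown from RefSeq (GRCm38.p6), from 250 bases before to 50 after the start. They lie at chr7:43436888-43437187 and chr9:123806227-123806526, both on the plus strand. Capitals mark matches on either strand to TGTGGT, letters that RUNX factors bind, and to GGTGTGA, letters that T-box factors such as T-bet and Eomes bind.
Nkg7: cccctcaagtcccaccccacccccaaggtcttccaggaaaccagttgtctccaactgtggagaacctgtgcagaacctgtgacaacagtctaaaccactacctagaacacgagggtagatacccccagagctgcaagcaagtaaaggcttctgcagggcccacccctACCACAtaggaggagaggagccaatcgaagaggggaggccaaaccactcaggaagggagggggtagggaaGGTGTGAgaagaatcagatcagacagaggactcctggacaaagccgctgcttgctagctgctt
Cxcr6: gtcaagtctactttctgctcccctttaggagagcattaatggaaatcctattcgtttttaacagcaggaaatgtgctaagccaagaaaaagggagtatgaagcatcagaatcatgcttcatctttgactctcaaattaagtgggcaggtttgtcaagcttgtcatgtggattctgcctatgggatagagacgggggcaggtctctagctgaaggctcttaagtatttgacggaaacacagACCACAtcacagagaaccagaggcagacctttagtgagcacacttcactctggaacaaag
The RUNX letters were found once in each, and in 16.8% of 32851 mouse promoters of this length. The T-box letters were found once in Nkg7, and in 3.98% of those promoters. The promoters of S100a4 and Pdcd1, genes described below, held neither set of letters in this window. A match is a match of letters and was not tested as a binding site.

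Members were 4.29% [3.89 to 4.71] of CD45-positive cells at 4 Gy and 3.92% [3.41 to 4.47] at 0 Gy, a ratio of 1.10 [0.926 to 1.30]. With the rule applied to cells thinned to 1000 UMIs the ratio was 0.965 [0.753 to 1.24]. Members were 41.7% of 989 CD8 T cells at 4 Gy and 44.2% of 480 at 0 Gy. The other CD8 T cells held Nkg7 without Ccl5 (378 at 4 Gy and 179 at 0 Gy), Ccl5 without Nkg7 (37 and 16) or neither (162 and 73). A further 138 cells at 4 Gy and 72 at 0 Gy met the rest of the rule but held an exclusion gene, most often Cd79a. Just inside the rule, 15 members at 4 Gy and 5 at 0 Gy held exactly 1 UMI of each of Ccl5 and Nkg7, while the medians were 26 and 30 UMIs of Ccl5 and 5 and 7 of Nkg7.

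Members differed among themselves in Cxcr6, and the split differed between doses. A Cxcr6 UMI was found in 34.9% [30.01 to 40.0] of members at 4 Gy, 129 of 370, against 50.5% [43.2 to 57.8] at 0 Gy, 97 of 192. After thinning, it was found in 18.2% [14.4 to 22.5] at 4 Gy and 25.1% [19.1 to 31.9] at 0 Gy. The share of Cxcr6 cells was lower at 4 Gy in both readings, and the thinned intervals overlap. Cells with a Cxcr6 UMI had a median of 4035 UMIs at 4 Gy and 5380 at 0 Gy, and members without one 4256 and 5545, so the depth of both kinds was near within each library.

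**Figure D3:**
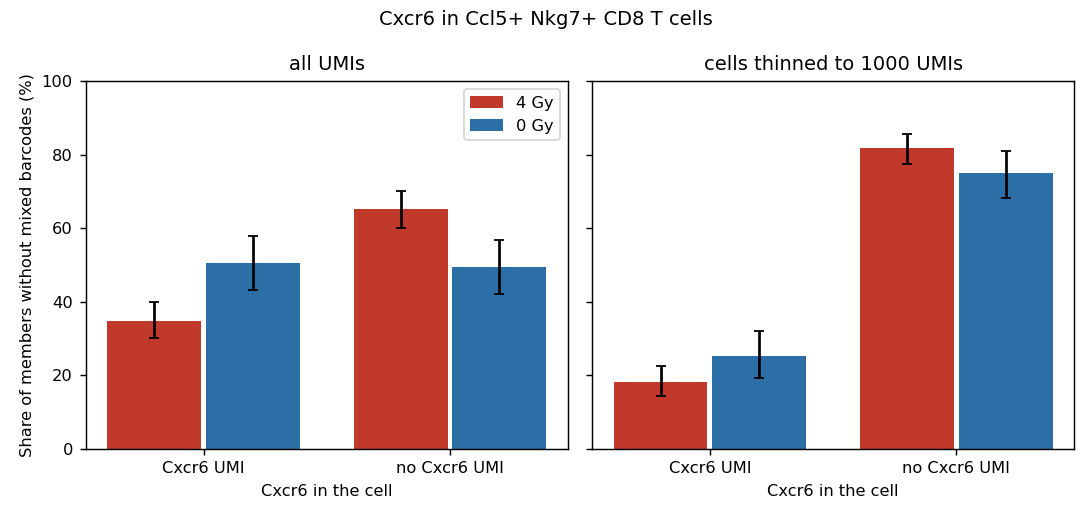
Share of members without mixed barcodes (%) with and without a Cxcr6 UMI at 4 Gy (left bars) and 0 Gy (right bars), with all UMIs (left panel) and after thinning each cell to 1000 UMIs (right panel); error bars are exact 95% binomial intervals. Cells with a Cxcr6 UMI were 34.9% at 4 Gy and 50.5% at 0 Gy, and 18.2% and 25.1% after thinning.

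Members with and without a Cxcr6 UMI held different genes at both doses. These genes were picked on the same cells, so their levels are descriptions. A cell without a Cxcr6 UMI may still express the gene. Pdcd1 (PD-1), an inhibitory receptor, stood at 219 CPM at 4 Gy and 284 CPM at 0 Gy in cells with a Cxcr6 UMI, against 47.3 and 37.1 CPM in members without one. Lag3, another inhibitory receptor, stood at 184 and 223 CPM in Cxcr6 cells, against 31.9 and 19.5 CPM in the others. S100a4, a calcium-binding protein of motile cells, stood at 345 and 697 CPM in Cxcr6 cells, against 76.5 and 121 CPM in the others. All of these were higher in Cxcr6 cells in both libraries. Cell cycle genes were on the same side, with Top2a, a DNA topoisomerase, at 103 and 154 CPM in Cxcr6 cells, against 18.2 and 37.1 CPM in the others. Tnfrsf9 (4-1BB), a costimulatory receptor of activated T cells, stood at 119 and 62.8 CPM in Cxcr6 cells, against 12.7 and 5.86 CPM in the others. On the other side, Tcf7 stood at 225 and 159 CPM in Cxcr6 cells, against 353 and 313 CPM in the others. Dapl1, a gene of quiescent T cells, stood at 93.4 and 66.1 CPM in Cxcr6 cells, against 162 and 156 CPM in the others. Ccr7, Satb1, Lef1, Il7r and Klf2 were also higher in members without a Cxcr6 UMI, in both libraries. Itgae stood at 29.1 and 62.8 CPM in Cxcr6 cells, against 11.8 and 3.91 CPM in the others. Cd69, listed with Itgae among markers of resident T cells, did not follow it. It stood at 76.6 and 99.1 CPM in Cxcr6 cells, against 192 and 97.7 CPM in the others.

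Over all members 8920 genes reached 30 counts, summed over the libraries, and count as measured. At 4 Gy, 499 of these (5.59%) lay 1.5-fold or more above 0 Gy and 288 (3.23%) as far below it, on CPM + 5. Without mixed barcodes 7901 were measured, with 418 (5.29%) higher and 256 (3.24%) lower. The counts of each list below are to be set beside these shares. A summed level cannot tell fewer cells with a gene from less RNA per cell.

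Genes of trafficking and residency were lower at 4 Gy where they passed 1.5-fold. Of 20 measured, 0 passed 1.5-fold upwards at 4 Gy and 2 downwards, against 5.29% and 3.24% of all measured genes. The list median of log2 ratios was -0.16. Cxcr6 (chr9:123806475-123811760, GRCm38) stood at 227 CPM at 4 Gy and 388 CPM at 0 Gy, a ratio of 0.585 [0.509 to 0.672]. Itgae, the integrin chain CD103, stood at 18.3 and 35.8 CPM, 0.510 [0.310 to 0.833]. Cxcr3 stood at 136 and 199.6 CPM, 0.681 [0.565 to 0.821], short of 1.5-fold. Cd69, also in this list, went the other way in members without a Cxcr6 UMI, with a ratio of 1.97 [1.44 to 2.73]. In Cxcr6 cells the ratio of Cd69 was 0.773 [0.520 to 1.14], an interval that includes 1. In activated CD4 cells Cxcr6 stood at 545 and 666 CPM, ratio 0.819.

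S100a4 (chr3:90603771-90606045) was among the 12 lowest genes. It stood at 176 CPM at 4 Gy and 433 CPM at 0 Gy, a ratio of 0.407 [0.352 to 0.471], and 0.414 [0.356 to 0.481] without the cell with the most S100a4 UMIs in each library. Among all thinned members, mixed barcodes included, 14.1% [10.9 to 17.9] at 4 Gy and 22.7% [17.3 to 29.0] at 0 Gy held a UMI, against 1.74% and 2.11% of thinned B cells. S100a4 was also lower at 4 Gy in NK cells, at 62.8 and 96.2 CPM, ratio 0.653, and in activated CD4 cells, at 645 and 1106 CPM, ratio 0.583.

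Of 14 measured inhibitory and costimulatory receptors, 1 passed 1.5-fold upwards at 4 Gy and 3 downwards, against 5.29% and 3.24% of all measured genes. The list median of log2 ratios was -0.11. Pdcd1 (chr1:94038305-94052553) stood at 111 CPM at 4 Gy and 171 CPM at 0 Gy, a ratio of 0.651 [0.531 to 0.799]. Ctla4, which competes with Cd28, stood at 32.0 and 52.8 CPM, 0.605 [0.412 to 0.888], and Icos, a costimulatory receptor, at 49.7 and 81.4 CPM, 0.610 [0.449 to 0.827]. Lag3 stood at 88.5 and 129.8 CPM, 0.682 [0.540 to 0.861], short of 1.5-fold on CPM + 5. Without the cell with the most UMIs of the gene in each library, Pdcd1 had a ratio of 0.666 [0.538 to 0.823] and Ctla4 of 0.636 [0.423 to 0.957], also just short of 1.5-fold. Tnfrsf18 (GITR), a costimulatory receptor, was higher, at 131 CPM at 4 Gy and 80.6 CPM at 0 Gy, 1.62 [1.27 to 2.10]. In activated CD4 cells Tnfrsf18 stood at 418 and 432 CPM, ratio 0.968.

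Within cells that held a Cxcr6 UMI, the ratios of Lag3 and Id2 had intervals that include 1. Lag3 stood at 184 CPM at 4 Gy and 223 CPM at 0 Gy, 0.824 [0.639 to 1.06], and Id2, a regulator of effector cells, at 516 and 572 CPM, 0.903 [0.775 to 1.05]. Pdcd1 stood at 219 and 284 CPM, 0.771 [0.613 to 0.968], lower at 4 Gy and short of 1.5-fold. In members without a Cxcr6 UMI the ratios of these genes lay above 1. The split was made on all UMIs, and these members were shallower at 4 Gy, with medians of 4256 and 5545 UMIs. Whether more cells with unseen Cxcr6 RNA fell among them at 4 Gy was not tested. Lag3 had a ratio of 1.63 [0.790 to 3.69] there and Pdcd1 of 1.28 [0.741 to 2.28], intervals that include 1. Id2 had a ratio of 1.30 [1.005 to 1.70] there. The part that the smaller share of Cxcr6 cells at 4 Gy plays in the ratios over all members was not tested. S100a4 stood at 345 and 697 CPM, 0.494 [0.419 to 0.582] in Cxcr6 cells and at 76.5 and 121 CPM, 0.631 [0.449 to 0.891] in members without a Cxcr6 UMI, so it was lower at 4 Gy in both. Tnfrsf18 stood at 175 and 94.2 CPM, 1.85 [1.34 to 2.60] in Cxcr6 cells and at 105 and 64.5 CPM, 1.62 [1.09 to 2.47] in the others, higher at 4 Gy in both. Ifng, the cytokine interferon gamma, stood at 106 and 74.3 CPM, 1.42 [0.963 to 2.12] in Cxcr6 cells, an interval that includes 1. Klrc2 stood at 99.5 and 193 CPM, 0.515 [0.374 to 0.703] in Cxcr6 cells and at 61.0 and 107 CPM, 0.568 [0.391 to 0.826] in the others. The ratio of Cxcr6 itself is set in part by this choice of cells.

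**Figure D4:**
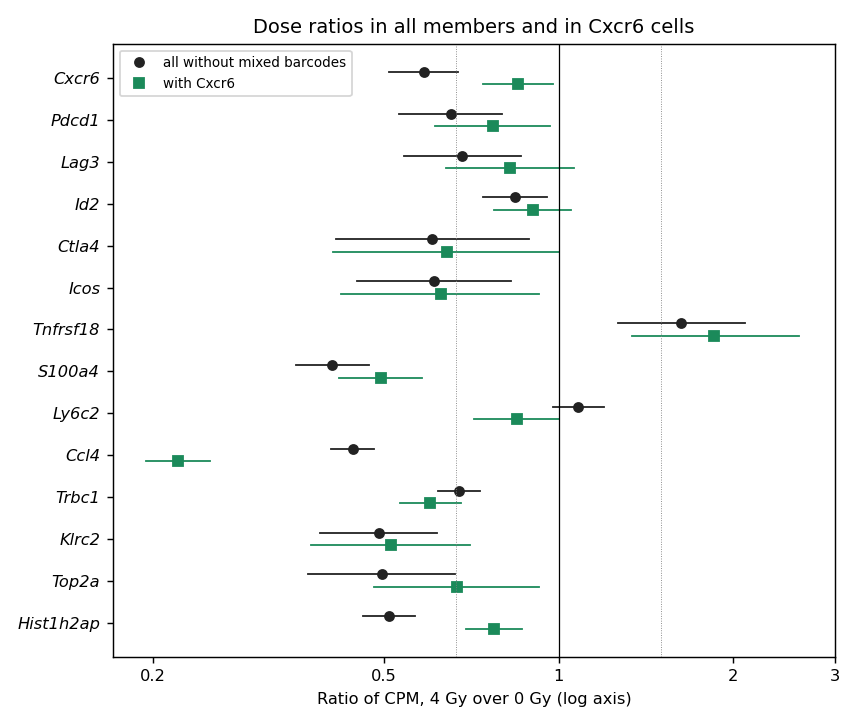
Ratio of CPM at 4 Gy over 0 Gy (log axis) in all members without mixed barcodes (circles) and in those with a Cxcr6 UMI (squares), with 95% counting intervals; dotted lines mark 1.5-fold. Pdcd1, Lag3 and Id2 lie nearer to 1 in Cxcr6 cells, while S100a4, Trbc1 and Klrc2 lie below 1 in both.

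Of the T cell receptor signalling list, 18 were measured, of which 0 passed 1.5-fold upwards at 4 Gy and 0 downwards, and the list median of log2 ratios was 0.01. Trbc1, a constant region of the beta chain, stood at 661 CPM at 4 Gy and 984 CPM at 0 Gy, 0.672 [0.618 to 0.731], while its near-identical copy Trbc2 stood at 1416 and 1349 CPM, 1.05 [0.984 to 1.12]. The split between these copies depends on how the authors counted and is uncertain. Klrc2, an NK-type receptor with close paralogs, was among the 12 lowest, at 75.4 and 154 CPM, 0.490 [0.387 to 0.618], against a ratio of 0.993 in NK cells.

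Proliferation genes were lower at 4 Gy where they passed 1.5-fold. Of 26 measured, 0 passed 1.5-fold upwards at 4 Gy and 9 downwards, against 5.29% and 3.24% of all measured genes. The list median of log2 ratios was -0.36. The 9 were Birc5, Ccna2, Cdk1, Hmgb2, Mki67, Nusap1, Pclaf, Top2a and Ube2c. Mki67, a marker of cycling cells, stood at 42.3 CPM at 4 Gy and 85.0 CPM at 0 Gy, 0.497 [0.362 to 0.681], from 24 and 13 cells. Top2a stood at 49.7 and 100.2 CPM, 0.496 [0.370 to 0.662], and in members without a Cxcr6 UMI 1 cell held 89.5% of its UMIs at 0 Gy. Without the top cell of each library, Top2a had a ratio of 3.23 [0.742 to 29.3] in those members. That of Mki67 was 7.85 [1.23 to 328] there, from 17 and 1 UMIs. In Cxcr6 cells without the top cells, the ratios were 0.663 [0.460 to 0.949] for Top2a and 0.591 [0.384 to 0.899] for Mki67. Over all thinned members, mixed barcodes included, a UMI of a cycle gene was found in 3.89% at 4 Gy [2.24 to 6.25] and 6.64% at 0 Gy [3.67 to 10.9], intervals that overlap. Without the cell with the most UMIs of the gene in each library, Hmgb2 had a ratio of 0.738 [0.611 to 0.893] and Nusap1 of 0.602 [0.304 to 1.19], both short of 1.5-fold on CPM + 5. Over all members Hmgb2 had a ratio of 1.19 [0.754 to 1.93] after thinning. In NK cells Top2a stood at 19.1 and 7.73 CPM, ratio 2.48.

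Of 20 measured genes of the naive and memory list, 0 passed 1.5-fold upwards at 4 Gy and 1 downwards, against 5.29% and 3.24% of all. The list median of log2 ratios was 0.18, against a median of -0.00 over all genes. The gene lower was Id3, a regulator of memory cells, at 34.3 and 59.97 CPM, 0.571 [0.396 to 0.822]. Tcf7 stood at 305 CPM at 4 Gy and 229 CPM at 0 Gy, 1.33 [1.15 to 1.55]. Among the naive T cell markers, Igfbp4 was at least 1.5-fold higher, at 66.8 and 32.2 CPM, 2.07 [1.42 to 3.10].

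Of 16 measured effector and exhaustion transcription factors, 0 passed 1.5-fold upwards at 4 Gy and 4 downwards, against 5.29% and 3.24% of all genes. The list median of log2 ratios was -0.28. Rora, a nuclear receptor, stood at 36.0 CPM at 4 Gy and 71.6 CPM at 0 Gy, 0.502 [0.355 to 0.708], and Zeb2, a regulator of terminal effector cells, at 59.4 and 98.5 CPM, 0.603 [0.457 to 0.796]. Maf and Nr4a3 were the others. Nr4a3 stood at 12.6 and 23.3 CPM, 0.540 [0.292 to 0.991], with 46.2% of its UMIs in 1 cell at 0 Gy, and 0.815 [0.383 to 1.77] without the top cell of each library, short of 1.5-fold. Eomes and Tbx21, the T-box factors of CD8 and NK cells, stood at 0.785 [0.559 to 1.11] and 0.851 [0.601 to 1.21] of their 0 Gy level, intervals that include 1.

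Of the cytotoxic granule list, 15 were measured, of which 0 passed 1.5-fold upwards at 4 Gy and 0 downwards, and the list median of log2 ratios was 0.07. Gzmb stood at 112 CPM at 4 Gy and 85.9 CPM at 0 Gy, 1.30 [1.02 to 1.68], and Prf1 at 116 and 83.2 CPM, 1.40 [1.09 to 1.81]. Of 13 measured secreted cytokines and chemokines, 0 passed 1.5-fold upwards at 4 Gy and 2 downwards, against 5.29% and 3.24% of all genes. The list median of log2 ratios was -0.03. Those lower were Ccl4, a chemokine of activated T and NK cells, and Il2, the T cell growth factor. Ccl4 stood at 512 CPM at 4 Gy and 1160 CPM at 0 Gy, 0.442 [0.405 to 0.481], but 1 cell held 53.01% of its UMIs at 0 Gy, and without the top cell of each library the ratio was 0.795 [0.714 to 0.886], short of 1.5-fold. The ratio of Ccl4 lay on opposite sides of 1 by Cxcr6. In Cxcr6 cells Ccl4 stood at 466 and 2111 CPM, 0.221 [0.194 to 0.250], and in members without a Cxcr6 UMI at 539.9 and 35.2 CPM, 15.4 [9.63 to 26.1], from 38 cells at 4 Gy and 9 at 0 Gy. Without the top cell of each library the ratios were 0.364 [0.312 to 0.424] in Cxcr6 cells and 21.2 [11.4 to 44.5] in the others. Il2 stood at 13.7 and 82.3 CPM, 0.166 [0.102 to 0.263], with 70.7% of its UMIs in 1 cell at 0 Gy, and 0.305 [0.145 to 0.612] without the top cells.

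Of 21 measured genes of the type I interferon list, 0 passed 1.5-fold upwards at 4 Gy and 3 downwards, against 5.29% and 3.24% of all. The list median of log2 ratios was -0.11. Isg15, a ubiquitin-like protein, stood at 49.1 CPM at 4 Gy and 90.4 CPM at 0 Gy, 0.543 [0.403 to 0.731], and Isg20, an exonuclease, at 27.4 and 56.4 CPM, 0.486 [0.327 to 0.719]. Ifit1, which binds viral RNA, stood at 22.3 and 57.3 CPM, 0.389 [0.254 to 0.588], and at 0.677 [0.402 to 1.14] without the top cell of each library. Isg15 stood at 0.672 [0.483 to 0.937] without the top cells, 1 of which held 26.7% of its UMIs at 0 Gy. Without the top cells neither Ifit1 nor Isg15 passed 1.5-fold on CPM + 5. Of the MHC class I list, 11 were measured, of which 0 passed 1.5-fold upwards at 4 Gy and 0 downwards, and the list median of log2 ratios was -0.12. Of the interferon gamma and GTPases list, 19 were measured, of which 0 passed 1.5-fold upwards at 4 Gy and 0 downwards, and the list median of log2 ratios was 0.09.

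Of 12 measured p53 targets, 1 passed 1.5-fold upwards at 4 Gy and 0 downwards, against 5.29% and 3.24% of all measured genes. The list median of log2 ratios was 0.17. The gene higher was Rrm2b, a subunit of ribonucleotide reductase, at 21.7 CPM at 4 Gy and 10.7 CPM at 0 Gy, 2.02 [1.03 to 4.25]. Cdkn1a had 161 UMIs at 4 Gy and 27 at 0 Gy over all members, of which 19 and 3 were outside the mixed barcodes, a ratio of 4.04 [1.19 to 21.3] below the limit of 30 counts. Its ratio was 3.63 in NK cells and 3.91 in B cells. Mdm2, the ligase that degrades p53, stood at 40.5 and 45.6 CPM, 0.888 [0.611 to 1.30].

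**Figure D5:**
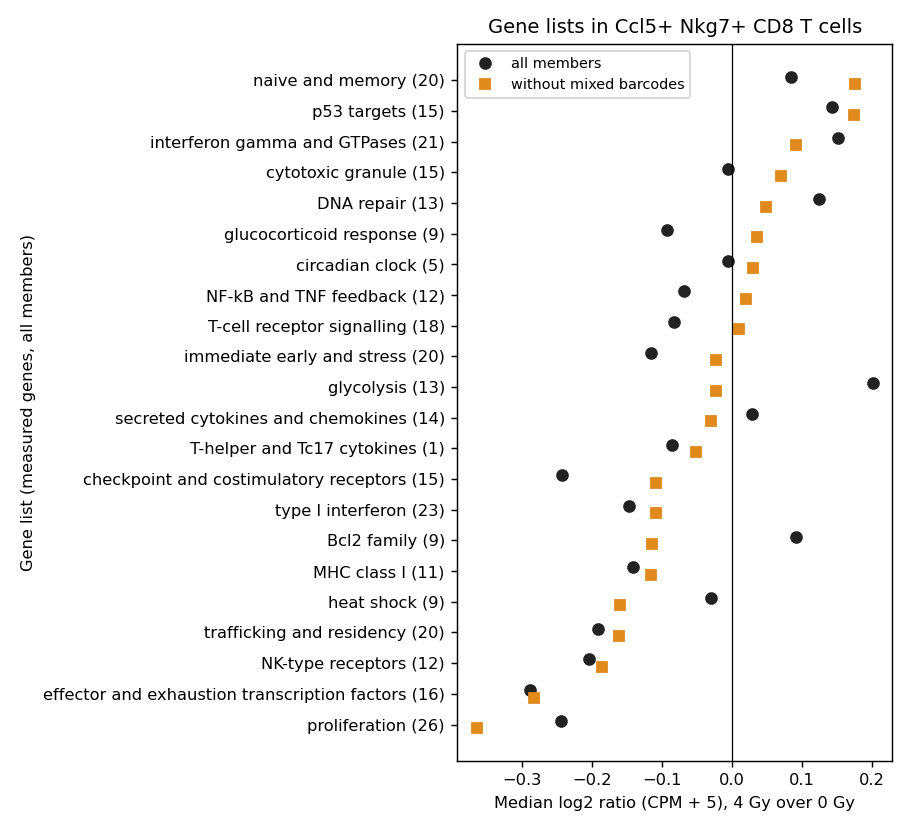
Median log2 ratio (CPM + 5) of 4 Gy over 0 Gy over the measured genes of each of 22 lists, in all members (circles) and without mixed barcodes (squares), with the number measured over all members in parentheses. Without mixed barcodes proliferation lies lowest, at -0.36, and naive and memory genes highest, at 0.18.

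Without mixed barcodes the highest genes included Ccl1, Il1r2, Trdc, Pik3ap1, Olfr77, Rbx1-ps, Nrgn, Nphs1, Eif3s6-ps2, Ube4b and Snrpg. Ccl1, a chemokine, came from 9 members at 4 Gy and 2 at 0 Gy, and Trdc, the constant region of the gamma-delta T cell receptor's delta chain, from 13 and 4. Olfr77 had a ratio of 2.43 [1.89 to 3.15] in members, and 2.42 in NK cells and 2.67 in B cells. Nphs1 had a ratio of 2.93 [1.66 to 5.52] in members, and 3.17 and 1.94 in NK and B cells, so both were higher at 4 Gy outside the members too. Rbx1-ps and Eif3s6-ps2 are named as pseudogenes of other genes, so their counts are uncertain. The 12 lowest were Tnfsf11, Il2, S100a4, Ccl4, Ube2c, Hist1h2an, Hist1h2ao, Hist1h2ap, Ifit1, Klrc2, Hist1h2ak and Jun, of which the histone genes are near-identical copies.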

How the data were processed

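Single-cell RNA of 4 libraries (1 for each dose and sort, 4 mice per treatment) was deposited by the authors as log2(CPM + 1) values per cell, per the values themselves. The submitters' processing notes name Partek, STAR, Seurat and mm10, with no order or role. Whole UMIs were recovered from the smallest step in each cell: at least 99.99968% of values were whole within 0.02. The design had assumed counts, and the deposited unit was log2. UMIs were summed over cells of a library and scaled to CPM, and ratios were formed on CPM + 5 for calls of 1.5-fold, for genes with at least 30 counts. Intervals are exact 95% Poisson, binomial (Clopper-Pearson) or conditional binomial ones. Members, lists and rules were chosen with earlier results of these data known. Named genes are the 12 highest and 12 lowest by the interval bound nearest 1, the 10 highest between cell sets, and list genes. Genes singled out otherwise were chosen after their values were seen. The procedure was tested on simulated summed counts with known folds, drawn independently for each gene. No single cells were simulated, so this cannot show how intervals and calls behave where 1 cell holds many UMIs of a gene. Gene positions are from GENCODE M21 (GRCm38). Python 3.11.15, numpy 2.4.6, scipy 1.17.1 and pandas 2.3.3 were used. CD45-negative libraries were used only for barcode overlap, depth and a count of cells that met the rule, 0 at 4 Gy and 2 at 0 Gy, which were not counted as members. Some genes are not reported here, among them one that the rules of the naive-like CD8 and activated CD4 sets also used.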

Additional observations from a re-analysis of the deposited data

Results flagged for a closer look

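For the genes below, the ratio of 4 Gy over 0 Gy lay on one side of 1 in members without mixed barcodes and on the other side in another cell set, with counting intervals that leave out 1. With 1 library per dose the difference between cell sets was not tested, and several rest on few UMIs. The intervals leave out the spread between the cells of a library. Ccl1 had a dose ratio of 11.9 [5.88 to 28.0] in members, against 0 in activated CD4 cells (0 CPM at 4 Gy and 517 CPM at 0 Gy). In members its UMIs came from 9 cells at 4 Gy and 2 at 0 Gy, with 51.7% and 62.5% of them in 1 cell. Ccl4 had a dose ratio of 0.442 [0.405 to 0.481] in members, against 16.6 [9.50 to 31.7] in activated CD4 cells (915 CPM at 4 Gy and 55.1 CPM at 0 Gy). Among members Ccl4 had a ratio of 0.221 [0.194 to 0.250] in cells with a Cxcr6 UMI and of 15.4 [9.63 to 26.1] in those without one, and of 0.795 [0.714 to 0.886] over both without the cell with the most Ccl4 UMIs in each library. Ctla4 had a dose ratio of 0.605 [0.412 to 0.888] in members, against 2.18 [1.32 to 3.71] in activated CD4 cells (222 CPM at 4 Gy and 102 CPM at 0 Gy). The activated CD4 set held 66 cells at 4 Gy and 57 at 0 Gy, and the UMIs of a gene may come from few of them. Hist1h2ap had a dose ratio of 0.510 [0.460 to 0.564] in members, against 6.16 [3.13 to 13.8] in naive-like CD8 cells (239.8 CPM at 4 Gy and 38.9 CPM at 0 Gy) and 2.08 [1.66 to 2.61] in NK cells (187 CPM at 4 Gy and 90.2 CPM at 0 Gy). Hmgb2 had a dose ratio of 0.638 [0.534 to 0.762] in members, against 2.53 [1.22 to 5.90] in naive-like CD8 cells (98.6 CPM at 4 Gy and 38.9 CPM at 0 Gy). Itgae had a dose ratio of 0.510 [0.310 to 0.833] in members, against 2.44 [1.06 to 6.55] in naive-like CD8 cells (74.0 CPM at 4 Gy and 30.3 CPM at 0 Gy). Birc5 had a dose ratio of 0.498 [0.337 to 0.733] in members, against 3.76 [1.43 to 12.5] in NK cells (16.2 CPM at 4 Gy and 4.30 CPM at 0 Gy). Mki67 had a dose ratio of 0.497 [0.362 to 0.681] in members, against 31.3 [5.34 to 1265] in NK cells (26.9 CPM at 4 Gy and 0.859 CPM at 0 Gy). Pclaf had a dose ratio of 0.487 [0.350 to 0.676] in members, against 8.35 [3.06 to 31.9] in NK cells (28.7 CPM at 4 Gy and 3.44 CPM at 0 Gy). Top2a had a dose ratio of 0.496 [0.370 to 0.662] in members, against 2.48 [1.15 to 5.90] in NK cells (19.1 CPM at 4 Gy and 7.73 CPM at 0 Gy). In members without a Cxcr6 UMI, ratios without the top cell of each library were 1.57 for Hist1h2ap, 7.85 for Mki67 and 3.23 for Top2a. In Cxcr6 cells they were 0.750, 0.591 and 0.663. Ube2c had a dose ratio of 0.349 [0.239 to 0.503] in members, against 9.75 [2.46 to 84.4] in NK cells (16.8 CPM at 4 Gy and 1.72 CPM at 0 Gy) and 3.10 [1.90 to 5.28] in B cells (10.3 CPM at 4 Gy and 3.34 CPM at 0 Gy). Klrc2 had a dose ratio of 0.490 [0.387 to 0.618] in members, against 2.05 [1.40 to 3.05] in B cells (12.7 CPM at 4 Gy and 6.20 CPM at 0 Gy). B cells served here as the level of free RNA, and whether they express Klrc2 was not tested. The NK-type receptor list as a whole had a summed ratio of 1.46 [1.37 to 1.56] in B cells.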

How the results depend on the processing

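The share of CD45-positive cells kept a ratio within its counting interval under every alternative run. Of the alternative values for the summed ratios of gene lists, 110 stayed within the main interval, 58 moved out of it and 8 changed side of 1. Of those for single genes, 551 stayed, 128 moved and 18 changed side. Values below are ratios of 4 Gy over 0 Gy over all members, and the causes of the changes were not tested. The number of genes at least 1.5-fold higher, 499, was 302 with cells thinned to 1000 UMIs, 759 with 1 CPM added, 171 with 20 CPM added, 757 with at least 10 counts, 197 with at least 100 counts. The number at least 1.5-fold lower, 288, was 474 with 1 CPM added, 44 with 20 CPM added, 493 with at least 10 counts, 91 with at least 100 counts. With 8 more exclusion genes, ratios moved to 0.807 (cytotoxic granule), 0.816 (NK-type receptors), 1.25 (naive and memory), 0.775 (effector and exhaustion transcription factors), 0.734 (checkpoint and costimulatory receptors), 0.898 (type I interferon), 1.04 (interferon gamma and GTPases), 0.615 (proliferation), 0.825 (Bcl2 family), 1.03 (NF-kB and TNF feedback), 1.10 (glucocorticoid response), 0.847 (DNA repair) and ratios changed side of 1 to 0.969 (p53 targets), 1.02 (immediate early and stress), 0.917 (heat shock), 0.844 (glycolysis), 0.729 (Hk2), 1.17 (Serpinb1a). With members with a cycle gene left out, ratios moved to 1.03 (cytotoxic granule), 0.589 (secreted cytokines and chemokines), 0.732 (checkpoint and costimulatory receptors), 0.975 (proliferation), 0.885 (immediate early and stress) and ratios changed side of 1 to 1.31 (Hist1h2an), 1.04 (Hist1h2ap), 1.74 (Ube2c). With mixed barcodes left out, ratios moved to 0.942 (cytotoxic granule), 0.814 (NK-type receptors), 1.15 (naive and memory), 0.881 (checkpoint and costimulatory receptors), 0.953 (T-cell receptor signalling), 0.803 (proliferation), 1.02 (heat shock), 0.898 (Bcl2 family), 1.04 (NF-kB and TNF feedback), 1.07 (glucocorticoid response), 1.03 (glycolysis) and ratios changed side of 1 to 1.01 (immediate early and stress), 0.638 (Bcl2a1a), 0.638 (Gpnmb), 1.06 (Serpinb1a), 0 (Thbs1). With the mean over cells, ratios moved to 0.796 (secreted cytokines and chemokines), 0.822 (NK-type receptors), 1.13 (naive and memory), 0.892 (trafficking and residency), 0.959 (T-cell receptor signalling), 0.948 (MHC class I), 1.03 (heat shock), 0.955 (Bcl2 family) and ratios changed side of 1 to 0.990 (glycolysis). With cells thinned to 1000 UMIs, ratios moved to 0.852 (NK-type receptors), 1.15 (naive and memory), 0.970 (effector and exhaustion transcription factors), 0.888 (trafficking and residency), 0.958 (T-cell receptor signalling), 0.986 (MHC class I), 0.931 (proliferation), 0.874 (immediate early and stress), 0.943 (Bcl2 family), 1.05 (glucocorticoid response), 0.798 (DNA repair), 0.679 (T-helper and Tc17 cytokines) and ratios changed side of 1 to 0.916 (glycolysis), 0.924 (Ctsc), 1.19 (Hmgb2), 0.685 (Il1r2), 0.898 (Irgm2), 1.03 (Mx1). With cells over 15000 UMIs left out, ratios moved to 1.13 (naive and memory), 0.939 (T-cell receptor signalling), 0.800 (proliferation), 1.02 (heat shock), 0.959 (Bcl2 family), 1.04 (glucocorticoid response), 1.02 (glycolysis). With scaling by the median of ratios, ratios moved to 0.932 (T-cell receptor signalling), 0.928 (MHC class I). With at least 2 UMIs of Ccl5 and of Nkg7, ratios moved to 0.803 (proliferation) and ratios changed side of 1 to 1.03 (immediate early and stress), 1.02 (Dusp1), 1.11 (Nr4a3). With the cell with the most UMIs of the gene left out, ratios changed side of 1 to 0.637 (Bcl2a1a), 1.27 (Serpinb1a). Leaving out a replicate could not be done, because there was 1 library per dose. A recomputation over a further subset of the members, set out at the start, was not run. No paired analysis was possible because each dose had 1 library. Under scaling by the median of ratios, the 4 Gy over 0 Gy size factor was 0.973 of that by total UMIs, a shift of -0.04 on the log2 scale. Of the values that changed side, these rest on fewer than 30 UMIs over both libraries: Bcl2a1a (10 and 8), Gpnmb (2), Hist1h2an (13), Hk2 (9), Il1r2 (14), Irgm2 (11), Mx1 (12), Serpinb1a (9 and 16 and 12), Thbs1 (3), Ube2c (4). Leaving out members with a cycle gene removes the counts of the proliferation genes themselves. Genes under 30 counts over all members were given no call of 1.5-fold, and a difference within a counting interval was not detectable at this depth.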
